A study of Homo sapiens with 6 samples.

Results

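The miRNAs described here are those whose hairpins overlap small nucleolar RNAs: hsa-miR-664a-3p, hsa-miR-664a-5p, hsa-miR-664b-3p, hsa-miR-1248 and hsa-miR-1291 (the species prefix is left out below). They were chosen by name, with no measured value in the rule, but with earlier results of these data known. Of the 6 names in the rule, 5 have a row among the 1596 mature miRNAs of the deposited table (miR-3607-3p was not analysed here). The study sequenced small RNA of a human melanoma cell line after 24 h with either RSL3 (3 libraries) or RSL3 combined with IFN-γ (3 libraries), to find miRNAs that move when IFN-γ is added to a ferroptosis inducer. RSL3 inactivates the lipid peroxidase GPX4 and so sets off ferroptosis, an iron-dependent death by lipid peroxidation, and IFN-γ is the cytokine by which activated T cells sensitise tumour cells to it. Both groups thus carried RSL3, and no untreated or IFN-γ-only library was analysed here. The sample labels name the line A2058, the study's methods name A375, both established melanoma lines, and the labels give no dose. No source says whether the 3 libraries of a group came from separate cultures, so the p-values below describe only how these libraries vary, and that variation may be technical.

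Small nucleolar RNAs of the H/ACA class guide the conversion of uridine to pseudouridine in ribosomal RNA, and their relatives in Cajal bodies, the scaRNAs, guide it in spliceosomal RNA. They are cut out of introns, fold into paired stems, carry an H box between the stems and an ACA box just before their 3′ end, and are bound by the pseudouridine synthase dyskerin. Some are also cut into shorter pieces of miRNA size, a part of which is loaded into Argonaute, and miRNA catalogues list such pieces as miRNAs.

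The mature sequences are shown 5′ to 3′ from RefSeq on GRCh38.p14, with the seed, bases 2 to 8, in capitals, because the seed is what pairs with a target and sets apart the arms of one locus. The last line is the other arm of the miR-664b hairpin, which is no member but is used for the arm shares.
miR-664a-3p: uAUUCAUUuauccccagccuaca
miR-664a-5p: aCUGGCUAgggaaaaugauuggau
miR-664b-3p: uUCAUUUGccucccagccuaca
miR-1248: aCCUUCUUguauaagcacugugcuaaa
miR-1291: uGGCCCUGacugaagaccagcagu
miR-664b-5p: uGGGCUAAgggagaugauugggua
The 5 members had 5 different seeds. Of the other miRNAs in the table with a RefSeq sequence, miR-4794 shared the seed of miR-664a-5p, miR-579-3p that of miR-664b-3p and miR-6775-3p that of miR-1291. The seeds of miR-664a-3p and miR-1248 were shared by none. The 3p arms of miR-664a and miR-664b differed by 5 single-base edits and shared their last 11 bases (cccagccuaca), yet a shift at the 5′ end gave them different seeds.

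The whole small nucleolar RNAs are shown next, from GENCODE 29 on GRCh38, with the mature arms in capitals, because the place of the arm within its RNA divides the members into 3 kinds. In the miR-664 RNAs the 5p arm comes first and the 3p arm last.
SNORA36B with miR-664a: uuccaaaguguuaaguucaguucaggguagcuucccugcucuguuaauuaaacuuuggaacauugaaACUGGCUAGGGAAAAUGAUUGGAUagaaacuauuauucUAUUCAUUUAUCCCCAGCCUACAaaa
SNORA36A with miR-664b: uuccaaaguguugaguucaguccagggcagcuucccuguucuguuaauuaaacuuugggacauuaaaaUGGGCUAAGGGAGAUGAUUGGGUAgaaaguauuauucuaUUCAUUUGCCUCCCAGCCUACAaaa
SNORA81 with miR-1248: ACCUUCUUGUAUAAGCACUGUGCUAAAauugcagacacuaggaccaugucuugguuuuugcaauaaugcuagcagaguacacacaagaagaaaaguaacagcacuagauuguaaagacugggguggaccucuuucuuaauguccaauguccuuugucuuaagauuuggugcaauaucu
SNORA2C with miR-1291: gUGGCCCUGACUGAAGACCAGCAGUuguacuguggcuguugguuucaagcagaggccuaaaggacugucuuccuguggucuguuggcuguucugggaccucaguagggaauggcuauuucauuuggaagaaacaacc
The miR-664a hairpin lies at chr1:220200538-220200619 on the minus strand and shares 74 of its 82 bases with SNORA36B (131 bases), in an intron of RAB3GAP2. The miR-664b hairpin lies at chrX:154768596-154768656 on the plus strand, with all 61 bases within SNORA36A (132 bases), in an intron of DKC1, the gene of dyskerin itself. miR-1248 was annotated at chr3:186786672-186786777 on the plus strand, with 103 of 106 bases in SNORA81 (178 bases), in an intron of EIF4A2, a translation initiation factor. miR-1291 was annotated at chr12:48654444-48654530 on the minus strand, with 75 of 87 bases in SNORA2C (137 bases), in an intron of KANSL2, a chromatin regulator.

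Both miR-664 3p arms stopped 3 bases before the 3′ end of their small nucleolar RNA, and both ended in ACA, the letters of the ACA box at its usual place. Among all 2370 mature sequences with a RefSeq entry, 33 (1.39%) ended in ACA. The 5p arm of miR-664a ended 40 bases before that 3′ end. miR-1248 began at the first base of SNORA81, and miR-1291 began 1 base after the 5′ end of SNORA2C. The letters of the H box (ANANNA, hairpin strand) occurred in all 4 hairpins, as in 57.8% of the 1560 hairpins searched. The letters of box C (NUGAUGA), which marks the other class of small nucleolar RNA, occurred in none of the 4 and in 2.69% of all. Box D (CUGA) occurred in the miR-1291 hairpin only, and in 39.9% of all. The GC content was 37.0% in miR-1248, 39.1% in miR-664a-3p, 41.7% in miR-664a-5p, 50% in miR-664b-3p and 58.3% in miR-1291.

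**Figure D1:**
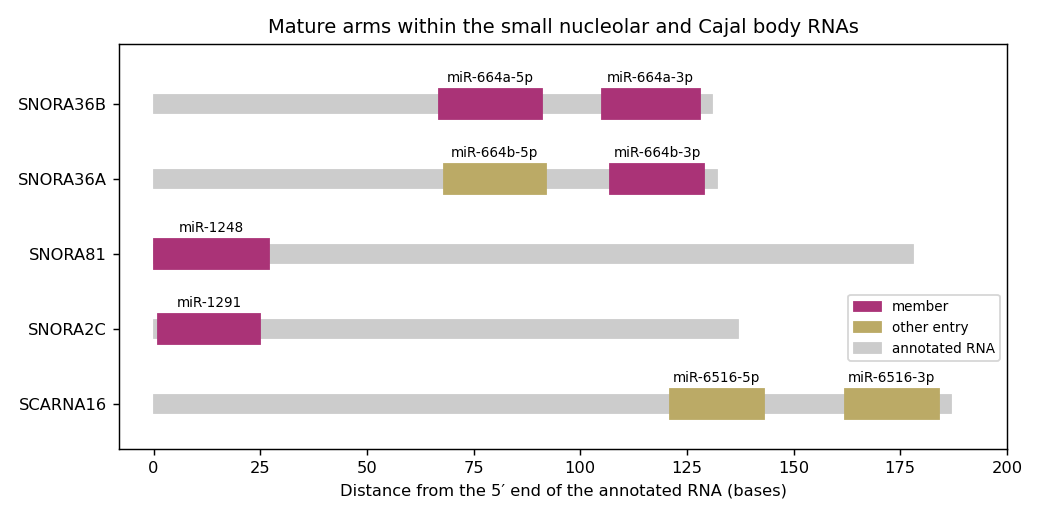
The horizontal axis gives the distance in bases from the 5′ end of each annotated RNA (grey bars), with the arms that are members in purple and other miRNA entries in yellow. Both miR-664 3p arms and miR-6516-3p end 3 bases before the 3′ end of their RNA, while miR-1248 and miR-1291 lie at the 5′ end.

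The sequences also set what a count can mean. A read of a mature arm has the same letters whether it was cut from a hairpin as a miRNA or is a piece of the small nucleolar RNA, and the counts do not separate them. The whole sequence of miR-664b-3p also occurs in SNORA36C (chr2:69520043-69520174, minus strand), which differs from SNORA36A by 4 single-base edits, so its reads could come from either locus. The other 4 members matched no small nucleolar RNA but their own. Transcripts of the host genes matched as well: miR-1248 occurs in an EIF4A2 transcript with a retained intron, and miR-664b-3p in a processed transcript of DKC1. No source used here states how the authors counted reads with several matches, and no member had the same 6 counts as another entry.

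The libraries held 4897890 to 6513382 counted reads in the RSL3 group and 4383940 to 5367150 in the combined group, so that the limit a count of 0 allows (3 reads) was 0.461 to 0.684 CPM (counts per 1000000 counted reads of the library). CPM below are scaled with edgeR's TMM factors, which ran from 0.861 to 0.913 under RSL3 and from 0.944 to 1.33 under the combination. Melanocyte and melanoma miRNAs (4 of 4 listed) summed to 292 to 350 CPM by library totals under RSL3 and 327 to 554 CPM under the combination. Most of this was miR-211-5p (232 to 279 CPM and 314 to 515 CPM), while miR-514a-3p stood at 45.7 to 66.6 CPM and at 13.7 to 37.5 CPM, miR-508-3p at 0.408 to 1.36 CPM and at 0, and miR-509-3p at 0.613 to 2.61 CPM and at 0 to 0.908 CPM. In the same order, blood miRNAs (4 of 4) summed to 87.8 to 145 CPM and to 77.8 to 434 CPM. Most of this was miR-451a (80.2 to 138 CPM and 70.5 to 423 CPM). miR-142-5p stood at 2.3 to 5.5 CPM and at 1.6 to 5.9 CPM, and miR-142-3p at 1.4 to 3.7 CPM and at 5.0 to 6.0 CPM. miR-223-3p stood at 0.614 to 2.25 CPM and at 0.186 to 0.228 CPM. Muscle miRNAs (2 of 2) summed to 155 to 1163 CPM and to 186 to 361 CPM, with miR-1-3p at 1124 CPM in RSL3 replicate 3. The liver miRNA miR-122-5p stood at 25.5 to 82.5 CPM and at 75.3 to 231 CPM. Epithelial miRNAs (2 of 2) summed to 12.9 to 24.0 CPM and to 13.4 to 18.6 CPM, and the neuronal miR-124-3p stood at 0.170 to 14.4 CPM and at 0.456 to 4.47 CPM. None of these markers was at 0 in all libraries, and the part of other cells' RNA in the members' values was not tested.

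The members were scarce in every library. Together they took 129, 78 and 121 reads in RSL3 replicates 1, 2 and 3, and 108, 135 and 151 reads in those of the combined treatment. By library totals, a scale that lies above the TMM scale for replicates 2 and 3 of the combined group, this was 21.9, 15.9 and 18.6 CPM against 24.6, 30.6 and 28.1 CPM. Most of these reads came from the arms of miR-664a. By mean CPM over the 6 libraries, miR-664a-5p ranked 463 of 1596 (10.9 CPM), miR-664a-3p 521 (7.10 CPM), miR-1291 658 (3.14 CPM), miR-1248 783 (1.71 CPM) and miR-664b-3p 1084 (0.486 CPM). These levels are not scaled to length, and the mature forms have 22 to 27 bases. Over the 6 libraries the range of each member overlapped that of its neighbours in this order, and at the top miR-664a-3p exceeded miR-664a-5p in 2 of the 3 RSL3 libraries and in none of the combined ones.

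miR-664a-3p, the arm that ends at the ACA box, was counted in 77, 18 and 51 reads under RSL3 and in 31, 27 and 26 reads under the combined treatment. This was 15.2, 4.02 and 8.92 CPM against 7.49, 4.61 and 4.20 CPM. RSL3 replicate 1 was the highest library and RSL3 replicate 2 the lowest, so all 3 combined libraries lay within the range of the RSL3 group. The 3 RSL3 counts differed far beyond counting error (the exact Poisson 95% interval was 60.8 to 96.2 reads around 77 and 10.7 to 28.4 around 18). Their chi-square per degree of freedom was 14.2, where 1 is counting error alone. The chi-squares of members, here and below, compare reads with library totals, without the TMM factors. Against library totals the 3 combined libraries differed by about counting error, with 1.03. Their SD was 1.12 CPM by library totals and larger on the TMM scale, at 1.79 CPM. The mean was 9.38 ± 5.60 CPM (SD, n = 3) with RSL3 and 5.43 ± 1.79 CPM (SD, n = 3) with the combination, a log2 fold change of −0.81 (SE 0.483) that missed the threshold (adjusted p = 0.310, edgeR quasi-likelihood test with Benjamini-Hochberg adjustment).

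miR-664a-5p, from the other side of the same hairpin, had its lower mean under RSL3. It was counted in 29, 51 and 37 reads under RSL3 and in 47, 79 and 83 reads under the combined treatment, or 5.72, 11.4 and 6.47 CPM against 11.4, 13.5 and 13.4 CPM. RSL3 replicate 2, the library lowest in the 3p arm, was the highest of its group in the 5p arm and met the lowest combined library. The groups thus overlapped by that single pair, and by library totals they did not (highest RSL3 library 10.4 CPM, lowest combined library 10.7 CPM). The mean was 7.87 ± 3.09 CPM (SD, n = 3) against 12.7 ± 1.21 CPM (SD, n = 3), and the log2 fold change of 0.71 (SE 0.346) did not pass (adjusted p = 0.226, edgeR). Against library totals both groups varied beyond counting error, with chi-squares per degree of freedom of 6.86 and 4.02. The SD of the combined group was 3.67 CPM by library totals but 1.21 CPM on the TMM scale. Spread beyond counting error was not tested on the TMM scale.

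miR-1291, at the 5′ end of SNORA2C, was counted in 10, 7 and 16 reads under RSL3 and in 15, 27 and 20 reads under the combined treatment. This was 1.97, 1.56 and 2.80 CPM against 3.62, 4.61 and 3.23 CPM, and all 3 combined libraries lay above all 3 RSL3 libraries. The mean was 2.11 ± 0.629 CPM (SD, n = 3) against 3.82 ± 0.712 CPM (SD, n = 3), with a log2 fold change of 0.84 (SE 0.463) that did not pass (adjusted p = 0.275, edgeR). Against library totals the spread within the RSL3 group was that of counting alone (chi-square per degree of freedom 0.876), and that of the combined group was 2.26. The SD of the combined group was 1.48 CPM by library totals but 0.712 CPM on the TMM scale. The miRNA entered the test by way of its higher group, since 3 combined libraries but 1 RSL3 library reached the filter's level. Groups that do not overlap in this direction were common: 15% of the 758 tested miRNAs had them on the TMM scale. By library totals, where miR-664a-5p joined miR-1291, the share was 26%.

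miR-1248, at the 5′ end of SNORA81, was counted in 7, 2 and 11 reads under RSL3 and in 14, 2 and 18 reads under the combined treatment. This was 1.38, 0.447 and 1.92 CPM against 3.38, 0.342 and 2.90 CPM, with replicate 2 the lowest library of both groups and the groups overlapping. The mean was 1.25 ± 0.747 CPM (SD, n = 3) against 2.21 ± 1.63 CPM (SD, n = 3), with p = 0.5 in an exact two-sided permutation test, whose smallest possible p is 0.1. Against library totals the chi-square per degree of freedom was 1.99 under RSL3 and 5.06 under the combination, where the libraries thus varied beyond counting error. Replicate 2 of each group, with 2 reads, lay under the limit that a count of 0 allows.

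miR-664b-3p was counted in 6, 0 and 6 reads under RSL3 and in 1, 0 and 4 reads under the combined treatment. On the CPM scale this was 1.18, 0 and 1.05 against 0.242, 0 and 0.645, with replicate 2 again lowest in both groups. The mean was 0.745 ± 0.648 CPM (SD, n = 3) against 0.296 ± 0.326 CPM (SD, n = 3), with p = 0.4 in the exact permutation test. Both miR-664b-3p and miR-1248 fell short of the filter on low counts and entered no edgeR test.

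**Figure D2:**
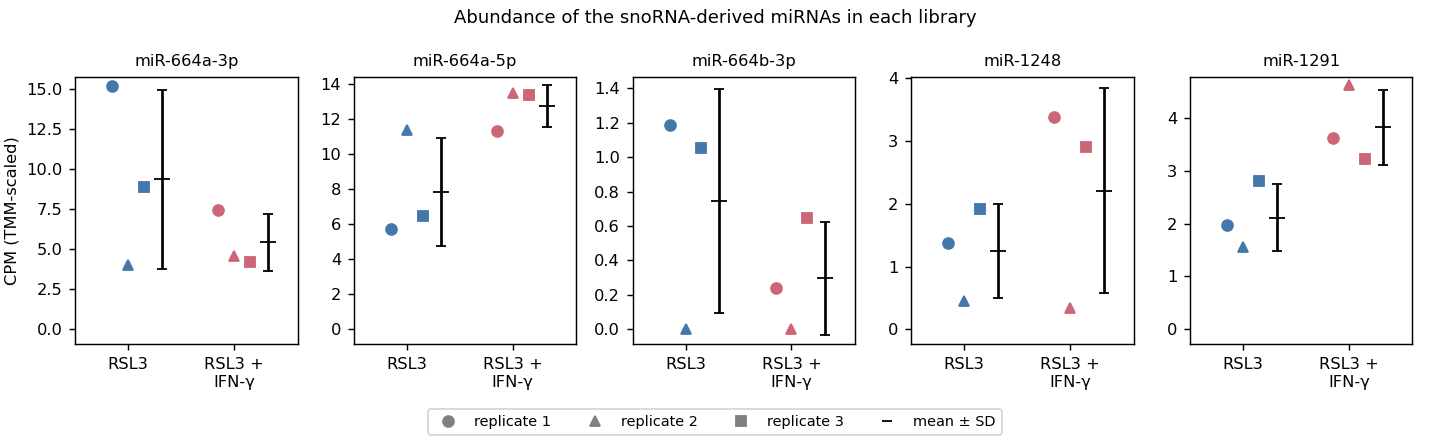
Each panel plots TMM-scaled CPM (vertical axis, a scale of its own per panel) of 1 miRNA in the RSL3 (blue) and RSL3 with IFN-γ (red) libraries, with marks for replicates 1 to 3 and black bars for mean ± SD of 3 libraries. Only miR-1291 separates the groups, and for miR-664a-3p the RSL3 libraries span 4.02 to 15.2 CPM, around all 3 combined ones.

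Across the members, 3 of 5 were tested and 0 passed in either direction by edgeR at an adjusted p under 0.05. Over all 758 tested miRNAs, 2.51% rose and 2.24% fell at that threshold. None of the 3 had an unadjusted p under 0.05, which 25.9% of the tested miRNAs had. With the replicate number as a block miR-664a-5p reached that level (adjusted p = 0.171, edgeR), as 28.5% of the miRNAs did in that fit. It also did so with the GC trend removed, where 92 of the 758 miRNAs rose and 77 fell at that level. The same held with the replicate block added to that (94 and 91). By library totals (194 and 44) and by the authors' totals (219 and 36), miR-664a-5p and miR-1291 reached it. Without RSL3 replicate 2 (105 and 108) both arms of miR-664a reached it. DESeq2 called 0 of the 3 tested members (adjusted p = 0.340 for miR-664a-3p, 0.223 for miR-664a-5p and 0.329 for miR-1291). In a fit without the filter, which included all 5 members, 3 log2 fold changes were above 0 and 2 below. Their median was 0.73, beside 0.01 over all 1596 miRNAs. The values that lay below 0 were those of the 3p arms at the ACA box, −0.81 for miR-664a-3p and −1.27 for miR-664b-3p (adjusted p = 0.733, edgeR). Those above 0 were the miR-664a 5p arm and the members at a 5′ end, with 0.77 for miR-1248 (adjusted p = 0.664, edgeR). The 5p arm of miR-664b, which is no member, lay below 0 in that fit, at −0.22 (adjusted p = 0.949, edgeR). The SE of that value was 0.996, and by library totals the means were 1.16 CPM under RSL3 and 1.18 CPM under the combination. Its sign is thus not settled. For miR-6516, also no member, that fit gave −0.83 for the 3p arm (adjusted p = 0.567, edgeR) and 0.37 for the 5p arm (adjusted p = 0.726, edgeR). Whether signs follow the place of the arm was not tested.

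Because both arms of miR-664a were counted in the same libraries, their ratio does not depend on the scaling between libraries. The 3p arm took 72.6% of the reads of both arms (exact binomial 95% interval 63.1 to 80.8%), 26.1% (16.2 to 38.1%) and 58.0% (46.9 to 68.4%) in RSL3 replicates 1, 2 and 3. In the combined treatment it took 39.7% (28.8 to 51.5%), 25.5% (17.5 to 34.9%) and 23.9% (16.2 to 33.0%). RSL3 replicates 1 and 3 lay above all combined libraries, and RSL3 replicate 2 lay among them. The intervals cover counting error only.

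The mean 3p share was 52.2 ± 23.8% (SD, n = 3) under RSL3 and 29.7 ± 8.75% (SD, n = 3) under the combination, with p = 0.2 in the exact permutation test. On the log2 scale of 3p over 5p reads (0.5 reads added to each), the ratio differed by −1.38 (SE 0.699), which did not pass over the 181 hairpins with enough reads of both arms (adjusted p = 0.318, limma). The share of those hairpins called was 0%, and 19.3% had an unadjusted p under 0.05. miR-664a missed that level in this fit, with all libraries and no replicate block. By size of the difference it ranked 3 of 181 from the negative end, and 46 of 181 by p. Its log2 ratio was 1.39, −1.48 and 0.46 under RSL3 and −0.59, −1.53 and −1.66 under the combination, lower in the latter for each of the 3 replicate numbers but barely so for number 2.

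The value turned on single RSL3 libraries. Without RSL3 replicate 2 the log2 ratio differed by −2.19 (adjusted p = 0.0939, limma), and without RSL3 replicate 1 by −0.75 (adjusted p = 0.669, limma). In RSL3 replicate 2 the log2 ratio was lower than the mean of the other RSL3 libraries by a difference of −2.40, the second lowest of the 181 hairpins, whose median difference was 0.05. With the replicate number as a block the difference was −1.38 (adjusted p = 0.253, limma), and miR-664a reached an unadjusted p under 0.05, as 18.8% of the hairpins did in that fit.

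The hairpin of miR-664b showed the same library apart, though its 3p reads, unlike its 5p reads, could also come from SNORA36C. Its 3p arm took 85.7% (exact binomial 95% interval 42.1 to 99.6%), 0% (0 to 23.2%) and 66.7% (29.9 to 92.5%) of the 7, 14 and 9 reads of both arms under RSL3. Under the combined treatment it took 20% (0.505 to 71.6%), 0% (0 to 52.2%) and 33.3% (9.93 to 65.1%) of 5, 5 and 12 reads. In RSL3 replicate 2 all 14 reads came from the 5p arm, the most 5p reads of any library, and none from the 3p arm. The reads are too few for a test across hairpins, and the exact permutation test of the shares gave p = 0.4. Over the 6 libraries the log2 CPM of miR-664a-3p correlated with that of miR-664a-5p at r = −0.90 and with that of miR-664b-3p at r = 0.73. These values describe 6 points that share library totals, and miR-664b-3p had reads in only 4 of the 6 libraries, at most 6 reads.

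**Figure D3:**
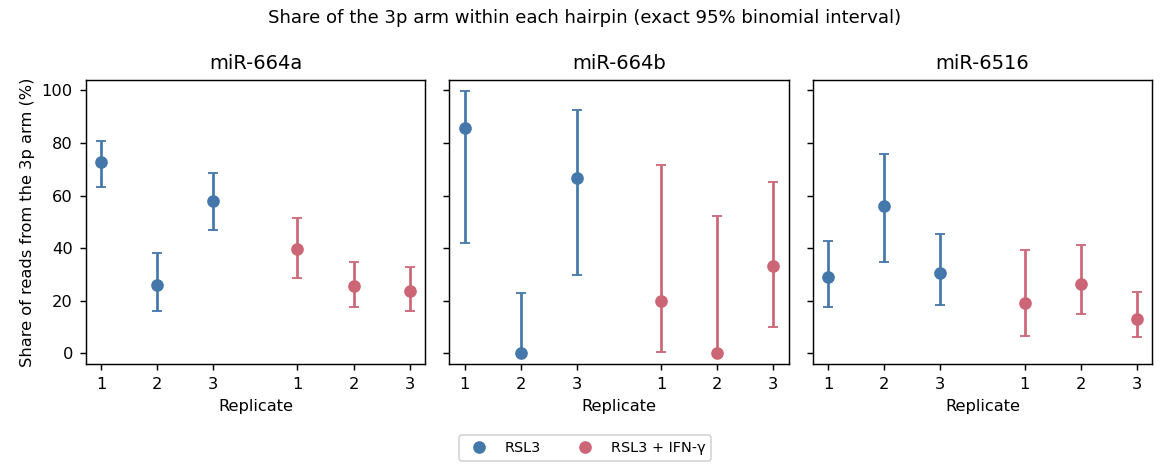
Each panel plots the share of the 3p arm among the reads of both arms (vertical axis, %) in each library (horizontal axis, replicates 1 to 3 of RSL3 in blue and of RSL3 with IFN-γ in red), with exact 95% binomial intervals. RSL3 replicate 2 is the lowest of its group for miR-664a (26.1%) and miR-664b (0%) and the highest for miR-6516 (56.0%).

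The ratio of miR-664a-3p to miR-664b-3p, whose reads could come from SNORA36A or SNORA36C, was compared in the same way. It was taken on the log2 scale with 0.5 reads added to each. It was 3.58, 5.21 and 2.99 under RSL3 and 4.39, 5.78 and 2.56 under the combined treatment, with means of 3.92 ± 1.15 (SD, n = 3) and 4.24 ± 1.62 (SD, n = 3). The groups overlapped, the difference was 0.32, and the exact permutation p was 0.8. The highest value of each group came from a library with 0 reads of miR-664b-3p, where the added 0.5 reads set the ratio. The sign of the difference turned to −0.15 without RSL3 replicate 3 and to −0.45 without replicate 2 of the combined treatment.

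The table held 5 further entries in annotated small nucleolar or Cajal body RNAs: miR-664b-5p, miR-1843 (SCARNA3), miR-3651 (SNORA84) and both arms of miR-6516 (SCARNA16). Of these, 3 were tested and 0 passed, by edgeR or by DESeq2, and 0 had an unadjusted p under 0.05. miR-6516 has the layout of miR-664, with a 3p arm that ends in ACA 3 bases before the end of its RNA. Its 3p arm took 29.1%, 56.0% and 30.6% of 55, 25 and 49 reads of both arms under RSL3. Under the combination it took 19.2%, 26.5% and 13.0% of 26, 49 and 69 reads. The shares did not overlap between groups, as was so for 8.84% of the 181 hairpins in this direction. Exact binomial 95% intervals of single libraries did overlap (17.6 to 42.9% in RSL3 replicate 1, 6.14 to 23.3% in replicate 3 of the combination). The log2 ratio differed by −1.33 (SE 0.533, adjusted p = 0.230, limma), which ranked 4 of 181 from the negative end, just behind miR-664a, and 27 of 181 by p, with an unadjusted p under 0.05. In RSL3 replicate 2, however, it lay above the other RSL3 libraries by 1.54, opposite to miR-664a. miR-1843 had 103, 50 and 99 reads against 51, 107 and 132 reads (log2 fold change 0.09, adjusted p = 0.882, edgeR), and miR-3651 had 5 reads in RSL3 replicate 3 and 0 in the other libraries.

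Entries that overlap other structural RNAs gave larger values than the members. miR-1246, which shares sequence with a spliceosomal RNA, rose by 2.27 on the log2 scale (adjusted p = 0.0111, edgeR), and miR-7977 rose by 1.58 (adjusted p = 0.0405, edgeR). The values for the tRNA-related miR-1260a and miR-1260b were 1.30 (adjusted p = 0.0665, edgeR) and 1.36 (adjusted p = 0.0557, edgeR), and both passed with DESeq2 (adjusted p = 0.00783 and 0.00415). The difference between these and the members was not tested.

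Of the members, miR-664a-5p alone had a mean of at least 10 CPM, which was needed to look for miRNAs of like pattern. Among the 472 other miRNAs at that level, the closest over the 6 libraries on log2 CPM were miR-326 (r = 0.991, rho = 0.886) and miR-3190-3p (r = 0.986, rho = 0.943). miR-326 stood at 93.1, 164 and 113 CPM under RSL3 and at 176, 200 and 207 CPM under the combined treatment. Like miR-664a-5p, both were highest of the RSL3 group in replicate 2. Neither passed the test between groups (log2 fold changes of 0.65 and 1.08, adjusted p = 0.146 and 0.107, edgeR). The values describe the closest of many patterns over 6 points.

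The direction of the 3 tested members held in all 15 alternatives of scaling, filter, model and left-out library, and in none of them did a member pass. For miR-664a-3p the log2 fold change ran from −1.16 without RSL3 replicate 2 to −0.28 without RSL3 replicate 1 (adjusted p = 0.113 to 0.812 over all alternatives, edgeR and DESeq2). It ran from 0.52 to 1.18 for miR-664a-5p (adjusted p = 0.0715 to 0.579, edgeR and DESeq2) and from 0.57 to 1.30 for miR-1291 (adjusted p = 0.118 to 0.547, edgeR and DESeq2). Scaling by library totals alone took the median log2 fold change over the 758 miRNAs from −0.04 to 0.33.

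**Figure D4:**
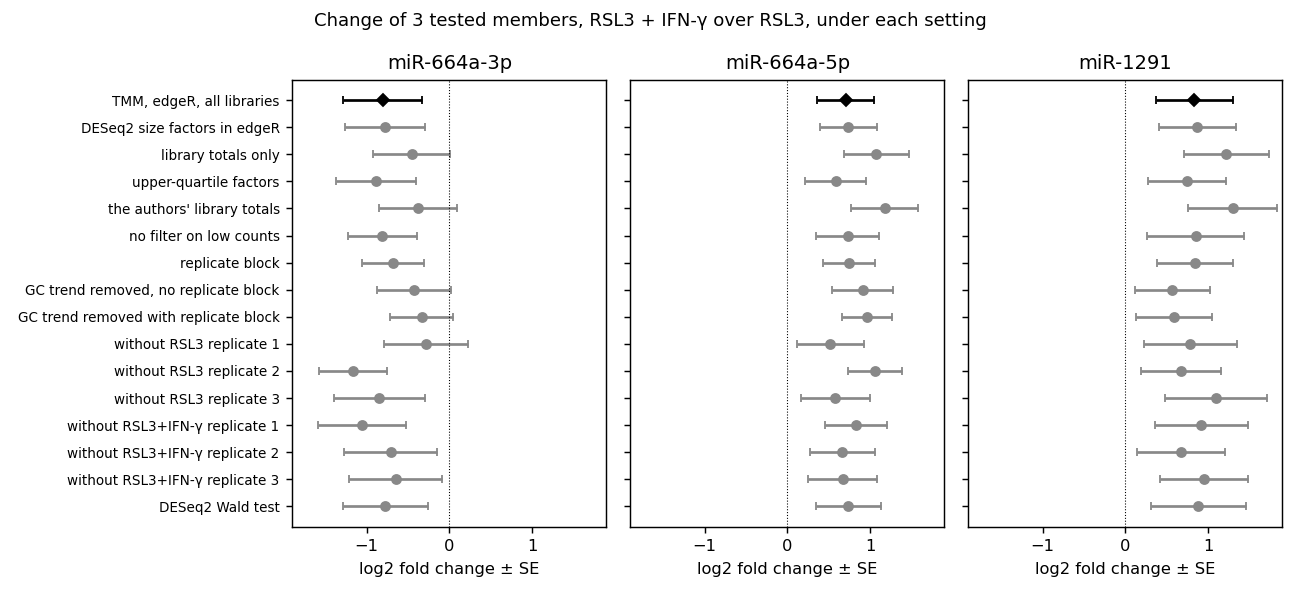
The log2 fold change of RSL3 with IFN-γ over RSL3 (horizontal axis, ± SE) of the 3 tested members under the reported fit (black) and 15 alternatives (grey), named on the vertical axis. miR-664a-3p stays below 0 (−1.16 to −0.28) and the other two stay above 0 in all 15, and no setting gave an adjusted p under 0.05.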

How the data were processed

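Small RNA was sequenced from 6 melanoma cell libraries, grouped by the treatment in the sample labels. GRCh38, Bowtie 1.1.1, bcl2fastq and edgeR appear in the submitters' processing notes, and no source used here states the miRBase release, the mismatches allowed or how reads with several matches were counted. The deposited table holds raw read counts per mature miRNA for each library. A second set of deposited columns is a signal normalized by the authors, each count being divided by a library total that the summed counts exceed 1.03 to 1.16 times. The deposited log2 fold change, linear fold change and p-value of each miRNA are the authors' own comparison and were not used. No per-sample column was left out (0 unused).

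The test on counts was edgeR 4.0.16 in R 4.3.3 (two-sided quasi-likelihood test, TMM factors) over the 758 of 1596 miRNAs passing edgeR's filter (minimum count 10, minimum total 15), with Benjamini-Hochberg adjustment and a threshold of 0.05. Arm ratios were tested with limma 3.58.1 over the 181 hairpins whose arms both averaged at least 10 reads, and DESeq2 1.42.0 was an alternative. Other alternatives changed the scaling, the filter, the GC trend, the added reads or the replicate block, or left out 1 library. Sequences came from RefSeq (GRCh38.p14, 1425 of 1596 names matched) and places from GENCODE 29 (GRCh38), with exons taken from protein-coding transcripts. Scripts were tested on simulated data. Intervals of counts (Poisson) and shares (Clopper-Pearson) cover counting error only, at 95%. All pairs of libraries differed beyond counting noise, with chi-squares of 125 or more per degree of freedom.

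Libraries with the same number deviated together from the group means, with correlations of 0.227, 0.217 and 0.207, each above 0.1. No source says what the numbers stand for. The reported tests, the permutation tests among them, did not pair the libraries. Pairing entered only as the replicate block among the alternatives. The miRNAs named are the members, the other arms of their hairpins, entries in annotated small nucleolar or Cajal body RNAs, 4 entries in other structural RNAs, and the 2 miRNAs most like each member of at least 10 CPM. Members and lists were chosen with earlier results of these data known.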

Additional observations from a re-analysis of the deposited data

How the results depend on the processing

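At a total of 17 to 326 reads per member, depth limits what can be seen: miR-664b-3p and miR-1248 lie near the limit of a count of 0. No member and no further entry in an annotated small nucleolar or Cajal body RNA was called in any of the 15 alternatives. Over all miRNAs, 19 rose and 17 fell. The counts were 60 and 11 with library totals only, 72 and 9 with the authors' library totals, 50 and 56 without the filter on low counts, 39 and 43 with the replicate block and 52 and 44 with DESeq2. With the GC trend removed 9 fell, and 11 fell with the GC trend removed and the replicate block. Leaving out 1 library gave 0 to 53 that rose and 0 to 48 that fell, with 0 of each without RSL3 replicate 1. The replicate block changed no member's call (log2 fold changes −0.68 for miR-664a-3p, 0.75 for miR-664a-5p and 0.84 for miR-1291, adjusted p = 0.277, 0.171 and 0.276, edgeR). Removing the GC trend left miR-664a-3p at −0.43 and miR-1291 at 0.57, both nearer to no change, while miR-664a-5p moved away from it, to 0.91. The miR-664a arm ratio ran from −2.19 to −0.75 when 1 library was left out. The ratio of miR-664a-3p to miR-664b-3p ran from −0.45 to 1.16 over the left-out libraries and turned to −0.15 without RSL3 replicate 3. miR-1843, near 0, turned to −0.012 with upper-quartile factors, −0.082 with the GC trend removed, −0.054 with the replicate block added to that, −0.11 without RSL3 replicate 2 and −0.09 without replicate 3 of the combined treatment, within a range of −0.11 to 0.32 over the left-out libraries. The causes were not tested.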
